A study of Mus musculus with 12 samples.

Results

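The genes described here are 10 regulators of the G1 phase of the cell cycle: the D cyclins Ccnd1, Ccnd2 and Ccnd3, the E cyclins Ccne1 and Ccne2, the kinases Cdk4 and Cdk6, and the inhibitors Cdkn1b (p27), Cdkn1c (p57) and Cdkn2c (p18). They were taken by name from a list that was drawn up with earlier results of these data known, as 10 of the 43309 features of the day 5 tables and of the 42802 features of the day 9 tables, and as 10 of the 41592 symbols found once at both days. All 10 had a row in the count table and in the TPM table of each day, and all 10 passed the filter on low counts at both days. The study removed lamin B1, a protein of the nuclear lamina encoded by Lmnb1, from cultured mouse neural progenitor cells, which are dividing cells able to form neurons and glia.

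All 12 libraries were of polyadenylated RNA from C57BL/6 cells that carried Ai3, an EYFP reporter switched on by Cre recombinase. The cells were kept in medium with 10 ng/ml EGF and 10 ng/ml FGF-2. Wild-type cells (WT, LaminB1+/+) and cells with floxed Lmnb1 (cKO, LaminB1fl/fl) received the same lentivirus, in which a Sox2 promoter drives Cre, so the controls had Cre and the reporter too. EYFP-positive cells were collected by flow sorting 5 or 9 days later, with 3 libraries in each of the 4 groups. Recombination was thus driven from a promoter active in Sox2-expressing cells, and the sort kept cells in which the reporter had recombined. Nothing in the labels says that the 3 libraries of a group are separate cultures or animals. Each p-value therefore reflects the spread among these libraries alone, which may be technical. The 2 days were deposited in separate tables, so day and table cannot be told apart, and levels were not compared between days.

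G1 is the stretch of the cell cycle in which a cell answers growth factors and either commits to copy its DNA or leaves the cycle. D cyclins pair with CDK4 or CDK6, and E cyclins with CDK2, to phosphorylate the retinoblastoma protein family and so release the E2F factors that switch on genes of DNA replication. INK4 inhibitors such as p18 bind CDK4 and CDK6 themselves, whereas CIP/KIP inhibitors such as p27 and p57 bind cyclin-CDK complexes, those of CDK2 above all. In the developing nervous system p27, p57 and p18 have each been linked to the exit of progenitors from the cycle, and much of the control of p27 acts on the protein rather than on its RNA.

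The stretch of DNA upstream of a gene's start is where its promoter lies, and 8 windows of 250 bases before an annotated RefSeq start (build GRCm38.p6) covered 6 of the 10 genes: Ccnd3, Ccne1, Cdk4, Cdk6, Cdkn1b and Cdkn2c. Each was searched on both strands for E2F sites (TTTCCCGC, TTTCGCGC, TTTGCCGC or TTTGGCGC), for CHR elements (TTTGAA or TTCGAA), for the E-box CACGTG, which reads the same on both strands, and for CCAAT. The letters of the searches were chosen after the windows had been seen. The 2 windows with the most matches are shown, with the matches in capitals: CACGTG in the Cdk4 window (chr10:127063285-127063534, plus strand) and CCAAT in the Cdkn1b window (chr6:134920151-134920400, plus strand).
Cdk4: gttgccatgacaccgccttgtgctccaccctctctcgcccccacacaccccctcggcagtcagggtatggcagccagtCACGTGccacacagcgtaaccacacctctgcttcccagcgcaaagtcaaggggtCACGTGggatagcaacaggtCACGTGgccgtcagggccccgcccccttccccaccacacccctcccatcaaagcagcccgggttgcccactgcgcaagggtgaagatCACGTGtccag
Cdkn1b: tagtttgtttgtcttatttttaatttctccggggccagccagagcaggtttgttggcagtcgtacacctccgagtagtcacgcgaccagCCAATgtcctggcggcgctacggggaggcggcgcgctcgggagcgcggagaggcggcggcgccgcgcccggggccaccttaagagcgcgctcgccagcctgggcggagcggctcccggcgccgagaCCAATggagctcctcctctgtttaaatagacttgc
The 4 E-boxes of the Cdk4 window began 172, 118, 98 and 11 bases before the start, and the 2 CCAAT boxes of the Cdkn1b window 161 and 35 bases before it. Cdk6 had 1 E-box, 220 bases before its start, and 1 of the windows of Ccnd3 had 1 CCAAT box. An E-box was present in 6.02% and a CCAAT box in 33.8% of all 32817 windows of the same length. No E2F or CHR letters were found in the 8 windows, against 1.86% and 17.1% of all windows. With so few windows, the lack of a match says nothing about E2F or CHR control of these genes. A match is a run of letters and not a measured binding site.

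Total expected counts, rounded to the leading 6 digits, were 26720600 to 32127700 per library at day 5. At day 9 they were 24413000 to 24662900 in WT and 13315400, 22988500 and 13709800 in cKO replicates 1, 2 and 3. Features that collect ribosomal, 7SK, 7SL and similar structural RNA held 15.9%, 35.0% and 17.9% of counts in the WT libraries of day 9 but 72.6%, 0.363% and 71.4% in the cKO libraries, so that 3647940, 22905000 and 3921470 counts lay outside them in cKO. At day 5 they held 0.0747% to 0.510%, except in cKO replicate 2, which had 14.4%. At day 5, WT replicate 1 and cKO replicate 2 stood apart together from the other 4 libraries, and their values are given with each gene below. Lmnb1, the deleted gene, checks the labels: at day 5 its CPM (counts scaled to a common library total after TMM) was 288.3, 255.1 and 247.4 for WT and 37.8, 40.7 and 45.0 for cKO. The CPM at day 9 was 155.7, 209.7 and 187.9 for WT and 34.3, 32.8 and 39.4 for cKO. The fall was 2.68 ± 0.20 (SE) on the log2 scale at day 5 and 2.38 at day 9, with adjusted p = 0.0493 and 1.85e-05 in edgeR's quasi-likelihood test with Benjamini-Hochberg adjustment.

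The progenitor markers Nes, Sox2, Vim, Pax6, Fabp7 and Hes5 were present in all libraries, and their summed level was 3684 to 5065 CPM in WT and 4010 to 4939 CPM in cKO at day 5. At day 9 it was 2511 to 2882 CPM in WT and 1174 to 1390 CPM in cKO, where 4 of the 6 fell, Pax6 rose and Sox2 did not pass the test. Markers of other neural cells moved with genotype at day 9, when 21% of all tested genes were called higher and 22.6% lower. All 7 tested of the 8 oligodendrocyte markers rose (sum 41.7 to 59.3 CPM in WT, 921 to 1302 CPM in cKO), as did 6 of 7 astrocyte markers (1621 to 1809 against 2818 to 3442 CPM) and 5 of the 6 tested of 7 neuron markers (125 to 286 against 512 to 576 CPM). Oligodendrocyte precursor markers summed to 2814 to 3192 CPM in WT and 3100 to 3583 CPM in cKO, with 2 of 6 higher and 4 lower. Of the 4 ependymal markers the 3 that could be tested fell (Foxj1, Rsph1 and Dynlrb2), and the sum was 9.55 to 10.2 CPM in WT and 5.77 to 7.46 CPM in cKO. Of these 4, however, 3 were under 1 CPM in every day 9 library. Markers of microglia (Aif1, C1qa and C1qb at 0 in every library), endothelium (Cdh5 at 0 at day 9) and mural cells summed to at most 1.27, 2.04 and 3.24 CPM at day 9. In bulk RNA fewer cells of a type and less RNA per cell cannot be told apart, and the part of these marker changes in the results below was not tested.

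At day 9, 7 of the 10 G1 genes differed between genotypes at an adjusted p under 0.05, with 6 lower in cKO and only Cdkn1c higher. The test called 43.6% of all 14617 tested genes (21% higher and 22.6% lower), so a call at day 9 was common, and the sizes differed widely between the 10 genes. The falls were steepest for Ccnd1 and Ccnd2, Cdkn2c fell and Cdkn1c rose by about the same factor, and the others changed by less or did not pass. The median log2 fold change of the 10 was −0.53, beside 0.01 over all tested genes. In 8 of the 10 the CPM of the WT and cKO libraries did not overlap, beside 57.8% of all tested genes. On TPM outside structural RNA this held for 6 of the 10, since Ccnd3 and Ccne1 overlapped on that scale, and on the deposited TPM for 4 of the 10 (Ccnd1, Ccnd2, Cdk6 and Cdkn2c). The count of genes called at day 9, 6378, was 4150 without WT replicate 2 and 4063 without cKO replicate 1, and without the latter 4 of the 10 passed (Ccnd1, Ccnd2, Cdkn1c and Cdkn2c). Of the 6378, 48.1% were higher in cKO, whereas limma on the deposited TPM plus 1, which are not rescaled for structural RNA, called 573 genes with 14.3% higher. At day 5 the median of the 10 was 0.11, beside 0.01 over all tested genes, and the CPM of the groups did not overlap for 2 of the 10, Ccnd1 and Cdkn1c, beside 2.85% of all tested genes. None of the 10 passed there, beside 0.00673% of 14849 tested genes, which is Lmnb1 alone. Lmnb1 itself was lost on leaving out any 1 library. That day had 89 genes at an unadjusted p under 0.05, Cdkn1c among the 10, and the other tools called 9 genes (DESeq2), 2 (limma-voom) and 3 (limma on TPM plus 1), with none of the 10 among them.

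**Figure D1:**
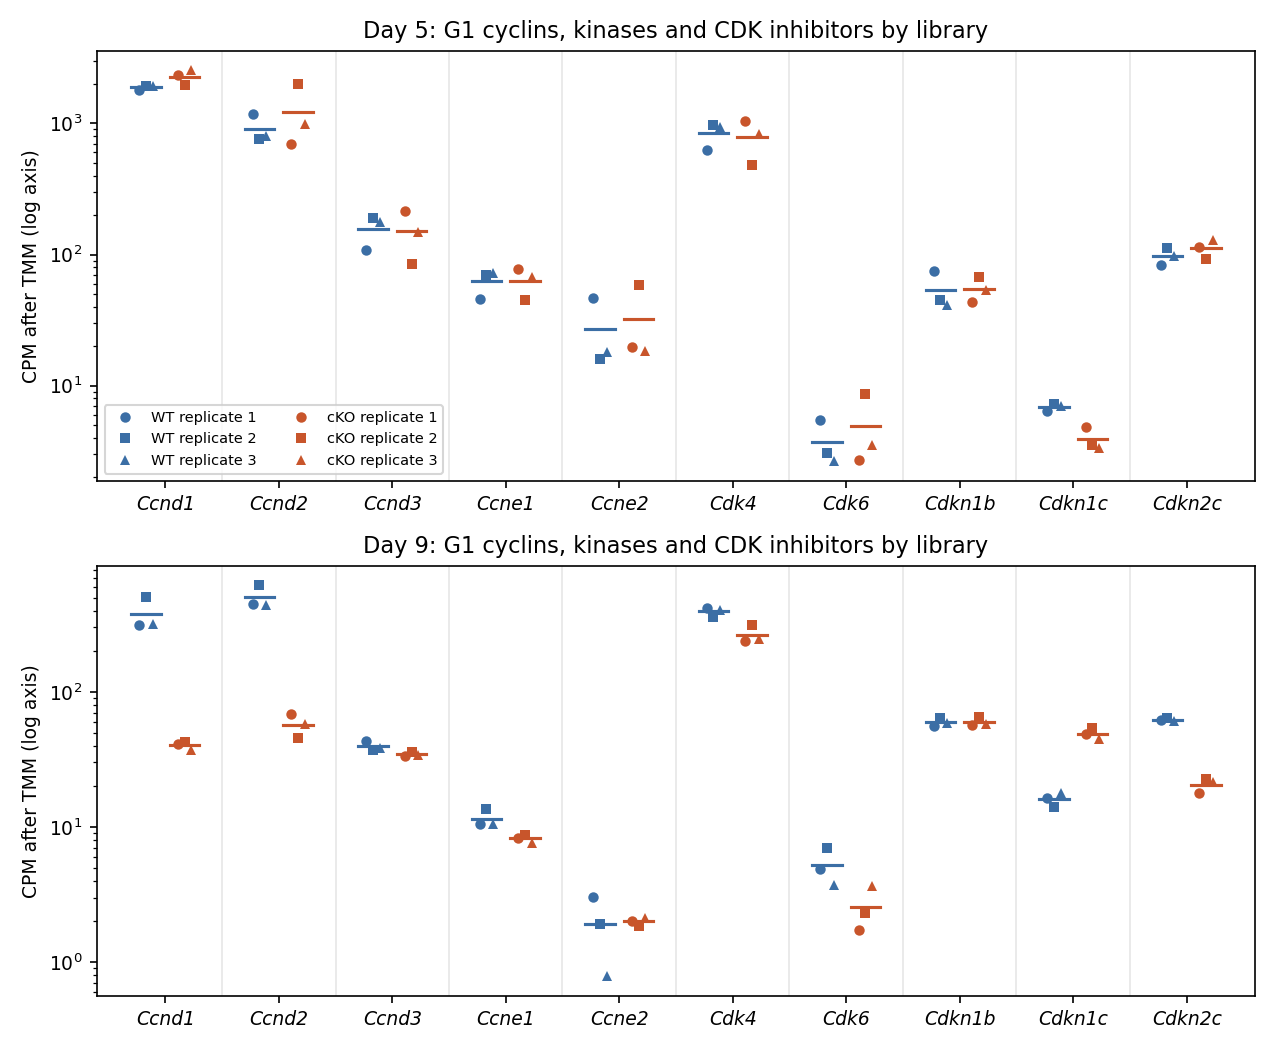
CPM after TMM scaling (log axis) of the 10 genes in each library at day 5 (top) and day 9 (bottom), WT in blue and cKO in orange, with symbols for replicates and a line at each group's mean. At day 9 the 3 cKO libraries lie far below the 3 WT libraries for Ccnd1, Ccnd2 and Cdkn2c and above them for Cdkn1c; at day 5 WT replicate 1 and cKO replicate 2 depart together from the other libraries in most genes.

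Ccnd1 encodes cyclin D1, the D cyclin most directly induced by growth factor signalling (chr7:144929931-144939925, minus strand, 5 exons). Its level at day 9 was 310.9, 506.5 and 320.8 CPM in the WT libraries and 41.5, 42.4 and 37.0 CPM in the cKO libraries. Every cKO library was below every WT library, and the 3 cKO libraries lay close together although their depth differed. Ccnd1 was 9.40-fold lower in cKO (log2 fold change −3.23 ± 0.21 SE, adjusted p = 3.42e-05, edgeR). Day 5 gave 1804, 1943 and 1928 CPM in WT, against 2323, 1962 and 2541 CPM in cKO. On this scale the groups did not overlap there either, with cKO the higher, but cKO replicate 2 was only just above the highest WT library. On TPM outside structural RNA the groups overlapped, with 845.3 in cKO replicate 2 and 853.4 in WT replicate 1, and the log2 fold change of 0.27 ± 0.21 did not pass (adjusted p = 0.9999, edgeR). LTO1 overlaps Ccnd1 on the opposite strand, with 204 to 401 expected counts at day 5 and no row under that name at day 9. Ccnd1 itself had 266 and 263 expected counts in cKO replicates 1 and 3 of day 9.

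Ccnd2 encodes cyclin D2, which is prominent in neural progenitors (chr6:127125162-127152193, minus strand, 5 exons). The WT libraries of day 9 had 451.5, 617.3 and 437.0 CPM and the cKO libraries 68.1, 45.9 and 57.6 CPM, with a wide gap between the groups. The difference was 8.80-fold (log2 fold change −3.14 ± 0.20, adjusted p = 2.68e-05, edgeR). Day 5 levels were 1177, 758.8 and 800.4 CPM for WT and 702.3, 1988 and 992.1 CPM for cKO, and the groups overlapped. The highest library of each genotype was the one that stood apart, and the log2 fold change of 0.43 ± 0.42 turned to −0.12 without cKO replicate 2. Both Ccnd1 and Ccnd2 stayed past the threshold at day 9 in all 18 alternative settings, including the one without cKO replicates 1 and 3, where the single cKO library low in structural RNA gave −3.19 ± 0.42 for Ccnd1 and −3.48 ± 0.29 for Ccnd2. That fit assumes that the lone cKO library varies as the WT libraries do.

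Ccnd3 encodes cyclin D3, the third partner of CDK4 and CDK6 (chr17:47505051-47599691, plus strand, 7 exons). Its CPM at day 9 was 43.3, 37.3 and 38.3 in WT, against 33.7, 35.8 and 34.3 in cKO. The cKO libraries were all below the WT libraries, by a margin smaller than the range of the WT libraries. The log2 fold change of −0.19 ± 0.11 did not pass (95% interval −0.44 to 0.05, adjusted p = 0.171, edgeR), and the interval excludes a fall of the size seen for Ccnd1 and Ccnd2. At day 5 Ccnd3 measured 107.9, 189.5 and 176.1 CPM in WT, against 216.6, 84.2 and 149.8 CPM in cKO, with overlapping groups and a log2 fold change of −0.07 ± 0.39. Bysl overlaps Ccnd3 on the other strand and had 188 to 1282 expected counts per library at day 9, near the 216 to 1532 of Ccnd3, and without strand information reads of the pair cannot be told apart.

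The unequal change within the D cyclins can be read from shares inside each library, which do not depend on how libraries are scaled. Shares were taken from the authors' TPM values, which account for transcript length. At day 9 Ccnd1 made up 44.7%, 51.5% and 46.8% of the summed D cyclin TPM in WT and 26.3%, 28.6% and 26.1% in cKO, and Ccnd2 42.1%, 41.0% and 41.5% against 28.2%, 19.9% and 26.5%. Ccnd3 went from the smallest share in every WT library (13.2%, 7.56% and 11.7%) to the largest in every cKO library (45.5%, 51.5% and 47.4%). These groups did not overlap, and the exact two-sided permutation test gave p = 0.1 for each, the smallest that 3 against 3 allows (adjusted p = 0.267 over 16 shares and ratios). The shares overlapped at day 5: the mean share of Ccnd1 was 67.3% ± 2.46 (SD, n = 3) in WT and 67.4% ± 8.93 in cKO.

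**Figure D2:**
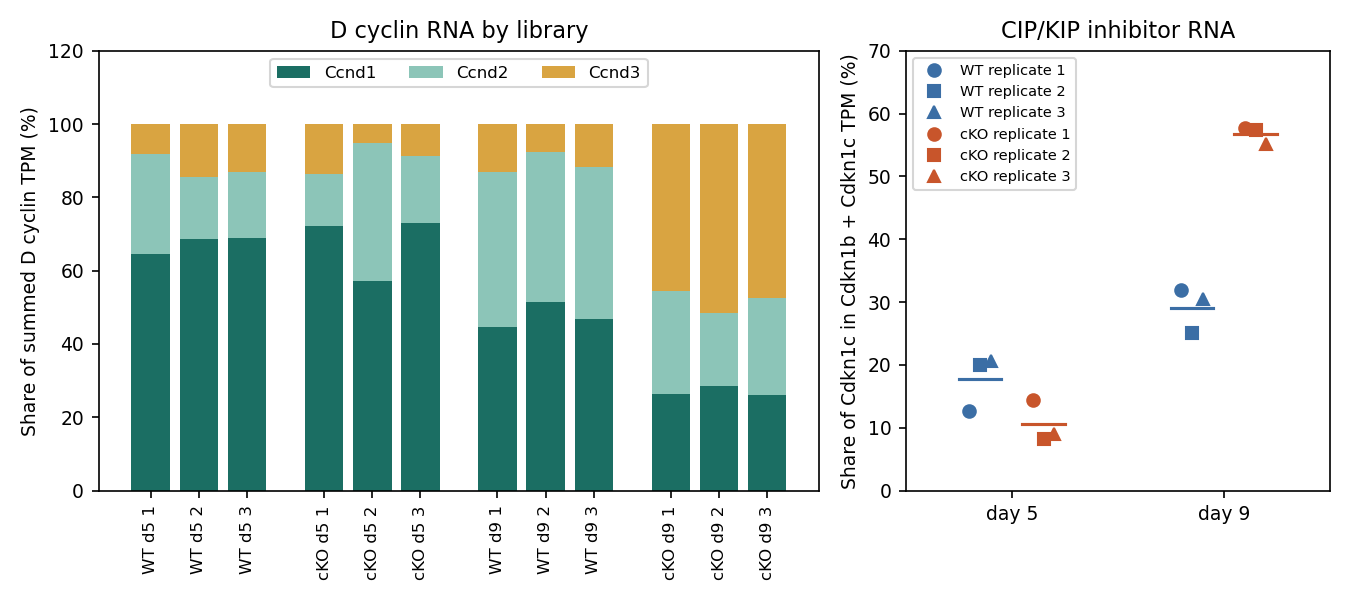
Left: share (%) of Ccnd1, Ccnd2 and Ccnd3 in the summed D cyclin TPM of each of the 12 libraries, day 5 (d5) and day 9 (d9). Right: share (%) of Cdkn1c in the summed Cdkn1b and Cdkn1c TPM, 1 point per library with a line at the group mean. In the cKO libraries of day 9 Ccnd3 holds 45.5% to 51.5% of D cyclin TPM, above all WT libraries of that day. Cdkn1c holds 55.2% to 57.6% of the summed Cdkn1b and Cdkn1c TPM there, also above all WT libraries of that day.

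The E cyclins activate CDK2 late in G1, and at day 9 1 of the pair passed the test. Ccne1, encoding cyclin E1 (chr7:38097984-38107534, minus strand, 12 exons), measured 10.4, 13.5 and 10.6 CPM in WT, against 8.26, 8.78 and 7.60 CPM in cKO at day 9. The CPM of the groups did not overlap, and the log2 fold change of −0.48 ± 0.16 passed narrowly (adjusted p = 0.0416, edgeR). That call depended on the libraries kept: it was lost on leaving out any 1 of the WT libraries, cKO replicate 1 or cKO replicate 3 (adjusted p up to 0.131), and only the fit without cKO replicate 2 kept it (0.0397). At day 5 Ccne1 measured 45.9, 69.4 and 72.4 CPM in WT, against 77.0, 44.7 and 67.1 CPM in cKO, with overlapping groups and a log2 fold change of 0.01 ± 0.30.

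Ccne2, encoding cyclin E2 (chr4:11191351-11204779, plus strand, 12 exons), was near the lower end of detection at day 9, with 3.02, 1.90 and 0.785 CPM in WT, against 2.03, 1.86 and 2.11 CPM in cKO. These rest on 107.4, 52.7 and 27.4 expected counts in WT and 13.4, 73.6 and 14.6 in cKO. The WT libraries spanned all the cKO libraries, and the log2 fold change of 0.06 ± 0.47 (95% interval −1.02 to 1.13, adjusted p = 0.932, edgeR) leaves changes in either direction up to about those bounds undetected. Relative to the median of all genes, the day 9 value was 0.21 on TPM plus 1 and −0.15 on TPM outside structural RNA plus 1, so it has no settled direction. At day 5 it measured 46.7, 15.9 and 18.2 CPM in WT, against 19.6, 58.2 and 18.4 CPM in cKO, where the 2 libraries that stood apart were higher than all 4 others. Ints8 on the opposite strand overlaps Ccne2 and had 145 to 856 expected counts at day 9, more than Ccne2 itself. Ccne1 made up 82.1%, 92.6% and 92.2% of the summed E cyclin TPM in WT and 87.7%, 89.0% and 86.8% in cKO at day 9, so cyclin E1 was the main E cyclin RNA in both genotypes.

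Cdk4, the catalytic partner of the D cyclins whose upstream window is printed above (chr10:127063534-127067920, plus strand, 8 exons), was the most abundant of the 10 RNAs per length in all 4 groups. WT libraries had 419.7, 359.9 and 407.1 CPM at day 9, and cKO libraries 237.3, 312.7 and 245.4 CPM. All cKO libraries were below all WT libraries, and cKO replicate 2, with little structural RNA, came nearest to WT. Cdk4 fell 1.49-fold (log2 fold change −0.58 ± 0.14, adjusted p = 0.0122, edgeR). Without cKO replicate 1 the adjusted p was 0.0526 (edgeR), and without cKO replicates 1 and 3 the log2 fold change was −0.37 ± 0.17. With structural RNA features removed before the fit it was −0.56, and −0.59 with a wider list of them. The part of the structural RNA share in this difference was not tested. At day 5 Cdk4 measured 631.9, 969.1 and 938.3 CPM in WT, against 1051, 484.5 and 825.7 CPM in cKO, and the groups overlapped (log2 fold change −0.10 ± 0.34). Tspan31 overlaps Cdk4 on the opposite strand, with 267 to 2515 expected counts at day 9 against 1522 to 14855 for Cdk4.

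Cdk6, the other D cyclin kinase (chr5:3341485-3531008, plus strand, 8 exons), was scarce at both days. WT libraries had 4.92, 7.03 and 3.69 CPM at day 9, and cKO libraries 1.71, 2.31 and 3.66 CPM, on as few as 11.3 and 26.0 expected counts in cKO replicates 1 and 3. The groups did not overlap, but the highest cKO library lay just under the lowest WT library. The log2 fold change of −1.03 ± 0.34 passed (adjusted p = 0.039, edgeR), and the call was lost on leaving out WT replicate 1, WT replicate 2, cKO replicate 1 or cKO replicate 2 (adjusted p up to 0.147). Cdk6 held 0.304%, 0.475% and 0.243% of the summed Cdk4 and Cdk6 TPM in WT and 0.187%, 0.174% and 0.397% in cKO, which overlap, so its change relative to Cdk4 was not detectable. At day 5 Cdk6 measured 5.43, 3.08 and 2.65 CPM in WT, against 2.72, 8.63 and 3.50 CPM in cKO (log2 fold change 0.41 ± 0.52).

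Cdkn1b encodes p27, the CIP/KIP inhibitor widely associated with quiescent cells, and its upstream window is printed above (chr6:134920401-134925513, plus strand, 2 exons). Day 9 levels were 56.0, 64.5 and 59.1 CPM for WT and 56.9, 65.6 and 58.0 CPM for cKO, and the groups overlapped almost fully. The log2 fold change was 0.01 ± 0.10 (95% interval −0.23 to 0.24, adjusted p = 0.953, edgeR), an interval that excludes a change as large as that of Cdkn1c. At day 5 it measured 74.6, 45.0 and 41.4 CPM in WT, against 43.5, 67.1 and 54.0 CPM in cKO, with a log2 fold change of 0.03 ± 0.31. On the deposited TPM plus 1, which are not rescaled for structural RNA, Cdkn1b stood at −1.08 at day 9, where the median of all genes was −0.79.

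Cdkn1c encodes p57, the CIP/KIP inhibitor expressed from an imprinted gene (chr7:143458339-143461050, minus strand, 4 exons). At day 9 it measured 16.4, 13.98 and 17.8 CPM in WT, against 49.1, 53.7 and 44.6 CPM in cKO. Every cKO library was far above every WT library, and in CPM cKO replicate 2 was close to the other cKO libraries. On TPM outside structural RNA cKO replicate 2 had 89.3, against 59.9 and 60.4 in cKO replicates 1 and 3. Cdkn1c rose 3.07-fold (log2 fold change 1.62 ± 0.14, adjusted p = 8.58e-05, edgeR). At day 5 it measured 6.44, 7.24 and 6.99 CPM in WT, against 4.81, 3.51 and 3.33 CPM in cKO, so that all cKO libraries were below all WT libraries. The log2 fold change there was −0.83 ± 0.26 (95% interval −1.45 to −0.21, unadjusted p = 0.0161 from edgeR's fit over all genes), and with the adjusted p of 0.9999 this was not a call. It was −0.81 ± 0.26 without the 2 libraries that stood apart, and on leaving out each library in turn it ran from −0.99 to −0.74.

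Within a library at day 9, Cdkn1c held 31.9%, 25.01% and 30.4% of the summed Cdkn1b and Cdkn1c TPM in WT and 57.6%, 57.4% and 55.2% in cKO, without overlap (exact permutation p = 0.1, adjusted p = 0.267). The main CIP/KIP RNA of the pair was thus Cdkn1b in every WT library and Cdkn1c in every cKO library of that day. The mean share of Cdkn1c at day 5 was 17.8% ± 4.42 (SD, n = 3) in WT and 10.6% ± 3.37 in cKO, with overlap (exact permutation p = 0.2). Summed D cyclin TPM per summed Cdkn1b and Cdkn1c TPM at day 9 was 6.90, 8.87 and 5.94 in the WT libraries, against 0.932, 0.812 and 0.881 in the cKO libraries, so the D cyclin RNA outweighed that of the 2 inhibitors in every WT library and in no cKO library. Per summed Cdk4 and Cdk6 TPM the WT values were 0.382, 0.650 and 0.385 and the cKO values 0.154, 0.113 and 0.131. Both ratios were chosen after the data were seen, and each gave an exact permutation p of 0.1. The inhibitor sum left out Cdkn2c and Cdkn1a, with log2 fold changes of −1.59 and −1.50 at day 9 (edgeR). The size of the first ratio thus depends on which inhibitors are summed.

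Cdkn2c encodes p18, an INK4 inhibitor of CDK4 and CDK6 (chr4:109660876-109667189, minus strand, 2 exons). At day 9 it measured 62.2, 63.6 and 60.5 CPM in WT, against 17.8, 22.5 and 21.5 CPM in cKO. On this scale both groups were tight and far apart, and Cdkn2c fell 3.002-fold (log2 fold change −1.59 ± 0.12, adjusted p = 4.98e-05, edgeR). On TPM outside structural RNA the cKO libraries spread more, with 30.6, 51.4 and 39.5 against 89.5, 97.2 and 94.2 in WT. This inhibitor thus changed in the direction of Ccnd1 and Ccnd2 and opposite to Cdkn1c. At day 5 it measured 83.2, 112.3 and 98.0 CPM in WT, against 113.2, 92.5 and 128.8 CPM in cKO, with overlap and a log2 fold change of 0.19 ± 0.23. On the deposited TPM values plus 1, without rescaling for structural RNA, the median of all genes at day 9 was −0.79 on the log2 scale. There neither Cdkn1c (0.54) nor Cdkn2c (−2.12) passed, and relative to that median they stood at 1.32 and −1.33.

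**Figure D3:**
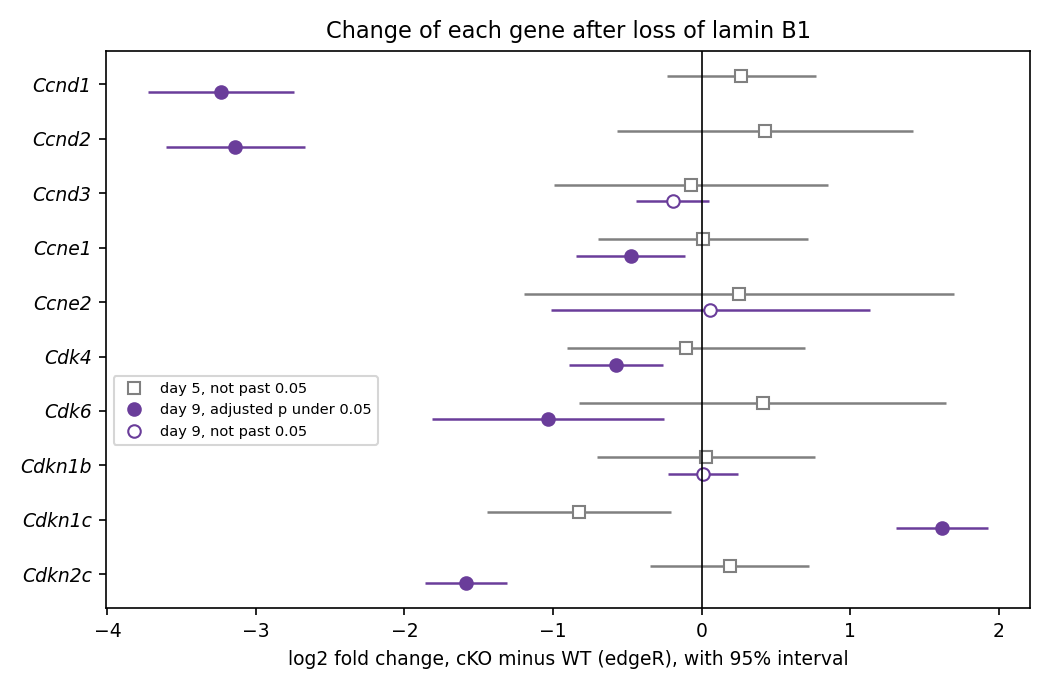
Log2 fold change (cKO minus WT, edgeR) of the 10 genes with 95% intervals, day 5 as grey squares and day 9 as purple circles, filled where the adjusted p is under 0.05. At day 9 Ccnd1, Ccnd2, Cdkn2c and Cdkn1c lie far from 0 in both directions while Ccnd3, Ccne2 and Cdkn1b span 0, and no day 5 value is filled.

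Levels were ordered between genes per transcript length, as mean TPM rescaled over the features other than structural RNA. In WT at day 9 the order was Cdk4 (1285 ± 100.4 SD), Ccnd1 (288.5), Ccnd2 (247.9), Cdkn2c (93.6), Ccnd3 (62.0), Cdkn1b (58.6), Cdkn1c (24.0), Ccne1 (19.9), Cdk6 (4.31) and Ccne2 (2.35). The ranges of Ccnd1 and Ccnd2, of Ccnd3 and Cdkn1b, of Cdkn1c and Ccne1 and of Cdk6 and Ccne2 overlapped, while the other neighbours were separate. In cKO at day 9 Cdk4 (826.6 ± 259.3) was followed by Cdkn1c (69.9), Cdkn1b (53.1), Ccnd3 (51.6), Cdkn2c (40.5), Ccnd1 (28.9), Ccnd2 (26.0), Ccne1 (13.3), Cdk6 (2.02) and Ccne2 (1.82). There the ranges overlapped between each pair of neighbours from Cdkn1c down to Ccnd2, and between Cdk6 and Ccne2. Cdkn1c was thus seventh in WT and next to Cdk4 in cKO, while Ccnd1 and Ccnd2 stood below all 3 inhibitors by mean in cKO and above them in WT. At day 5 the same order held in both genotypes: Cdk4 (1573 in WT, 1423 in cKO), Ccnd1 (809.4, 943.5), Ccnd2 (253.2, 334.6), Ccnd3 (141.8, 126.4), Cdkn2c (76.7, 83.8), Ccne1 (60.7, 59.6), Ccne2 (30.3, 29.7), Cdkn1b (28.2, 27.4), Cdkn1c (5.68, 3.12) and Cdk6 (1.74, 2.41). Neighbours overlapped there between Ccne1 and Ccne2 and between Ccne2 and Cdkn1b in both genotypes, and in cKO also between Cdk4 and Ccnd1, Ccnd3 and Cdkn2c, and Cdkn1c and Cdk6.

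At day 5 the 2 libraries that stood apart, 1 of each genotype, sorted the 10 genes into groups by direction. WT replicate 1 and cKO replicate 2 were both above the other 4 libraries for Ccnd2, Ccne2, Cdk6 and Cdkn1b, and both below them for Ccnd3, Ccne1, Cdk4 and Cdkn2c. For Ccnd1 and Cdkn1c they were not both outside the range of the others. The 4 genes that were high have annotated transcripts of 6330, 3006, 11525 and 4552 bases, and the 4 that were low 2113, 2000, 2053 and 1106 bases. Ccnd1 and Cdkn1c, which were neither, have 3740 and 1888 bases, so Ccnd1 is longer than Ccne2 but was not high. Cdkn1c is shorter than Ccnd3, Ccne1 and Cdk4 but was not low. The part of transcript length in this split was not tested. Without these 2 libraries 19 genes were called at day 5, again with none of the 10.

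Whether the effect of genotype differed between days was tested directly, by subtracting the day 5 change from that of day 9 in 1 fit over 15323 genes. It passed for 4 of the 10 genes (1 above and 3 below), beside 7.71% of all genes tested (2.57% above and 5.14% below). The same 4 passed on leaving out each of the 12 libraries in turn, while the count over all genes, 1181, was 2410 without cKO replicate 2 of day 5, 769 without cKO replicate 3 of day 5, 756 without WT replicate 2 of day 9 and 773 without cKO replicate 1 of day 9. The difference was −3.50 ± 0.27 for Ccnd1 (adjusted p = 4.68e-05, edgeR) and −3.57 ± 0.51 for Ccnd2 (0.00145). It was 2.44 ± 0.27 for Cdkn1c (adjusted p = 0.000286, edgeR), whose day 5 and day 9 values point in opposite directions, and −1.78 ± 0.23 for Cdkn2c (0.000763). Without cKO replicates 1 and 3 of day 9 Cdkn2c no longer passed (adjusted p = 0.0601), with a difference of −1.54 ± 0.35. For the other 6 the difference did not pass, with adjusted p from 0.295 for Cdk6 to 0.987 for Cdkn1b.

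Related genes were counted in 9 lists, and each count below is to be read beside the 43.6% of all tested genes called at day 9 (21% higher and 22.6% lower), since a share near it says nothing about a list. Of the 5 other CDK inhibitors 1 was higher and 3 lower at day 9. Cdkn1a (p21, a CIP/KIP inhibitor and p53 target) measured 75.6, 89.2 and 66.8 CPM in WT, against 28.2, 31.8 and 21.5 CPM in cKO and fell by 1.5 ± 0.17 on the log2 scale (adjusted p = 0.000373, edgeR). Among the INK4 genes Cdkn2d (p19) fell by 1.02 ± 0.13 (adjusted p = 0.000652) and Cdkn2b (p15) rose by 1.0 ± 0.22 from 3.05, 4.48 and 3.37 to 6.55, 8.65 and 6.33 CPM (adjusted p = 0.00929). Cdkn2a, whose locus encodes p16 and p19ARF, measured 9.66, 8.0 and 9.34 CPM in WT, against 4.21, 8.10 and 5.91 CPM in cKO and did not pass (−0.53 ± 0.23, adjusted p = 0.0982). Cdkn3, a CDK-associated phosphatase gene, fell by 4.0 ± 0.33 (adjusted p = 8.33e-05). Counting the 3 members, Cdkn1c and Cdkn2b were therefore higher, and Cdkn1a, Cdkn2c, Cdkn2d and Cdkn3 lower, of 8 inhibitor genes tested.

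Downstream of the G1 kinases, 1 of 13 genes of the RB and E2F family rose and 5 fell at day 9 (median −0.24, beside 0.01 over all genes), a share called near the 43.6% of all tested genes. The activator E2Fs E2f1 and E2f2 fell by 2.58 ± 0.26 and 2.29 ± 0.21 on the log2 scale (adjusted p = 0.000231 and 0.000124, edgeR), and the atypical repressors E2f8 and E2f7 by 1.61 ± 0.21 and 1.61 ± 0.39 (adjusted p = 0.000672 and 0.0155). Rb1, the retinoblastoma gene, was the 1 that rose, by 1.58 ± 0.40 (adjusted p = 0.0227), from 15.2, 8.21 and 5.12 CPM in WT to 30.2, 31.3 and 23.9 CPM in cKO. Rbl1 (p107) was the fifth that fell. Of CDK2 and its activators Cdk2 fell by 1.2 ± 0.16 (21.3, 24.9 and 21.4 CPM in WT, 7.79, 10.6 and 10.8 CPM in cKO, adjusted p = 0.000787), Cdc25a, a phosphatase that activates it, fell by 0.48 ± 0.13 (0.0191) and Cdk7 of the CDK-activating kinase rose by 0.62 ± 0.10 (0.00248). Of the 6 genes of the MuvB core and DYRK1A list, Rbbp4 fell by 0.51 ± 0.10 (0.00682) and the other 5 did not pass.

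Cyclins of the later phases fell together. All 5 genes of the S and M phase list fell at day 9 (median −3.56), among them Ccna2 from 72.0, 109 and 70.3 to 5.77, 8.10 and 7.04 CPM (adjusted p = 3.13e-05, edgeR), with log2 fold changes of −3.63 ± 0.17 for Ccnb1 (8.85e-06), −3.85 ± 0.25 for Ccnb2 (2.74e-05) and −3.06 ± 0.16 for Ccnf (1.02e-05). The fold changes of Ccnd1 and Ccnd2 were of about these sizes, while that of Ccne1 was smaller. Of 5 proliferation markers 4 fell: Mcm2 (−2.28 ± 0.13, adjusted p = 1.51e-05, edgeR), Mcm6 (−2.02 ± 0.18, 0.000115), Pcna (−1.38 ± 0.18, 0.000787) and Top2a (−1.98 ± 0.52, 0.0284). Mki67 ranged from 6.02 to 10.9 CPM in WT and from 1.28 to 13.8 CPM in cKO and did not pass (−0.28 ± 0.84).

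Of 13 genes for the turnover of G1 cyclins and p27 (14 were looked for), 2 rose and 3 fell at day 9, near the 43.6% called over all tested genes. Cks1b and Skp2, both part of the ubiquitin ligase that recognises p27, fell by 1.93 ± 0.15 and 0.71 ± 0.16 on the log2 scale (adjusted p = 4.98e-05 and 0.0102, edgeR). Gsk3b, a kinase that marks cyclin D1 for export and degradation, rose by 0.74 ± 0.15 (0.00557), Cul4a rose by 0.46 ± 0.12 (0.0174), and its adaptor Ddb1 fell by 0.39 ± 0.10 (0.0154). Of 10 tested transcription factors upstream of the D cyclins and p27 (11 in the list), 2 rose and 3 fell, again near that share. The FGF-responsive ETS factors Etv4 and Etv5 fell furthest, Etv5 from 297, 331 and 309 to 16.5, 12.7 and 14.9 CPM (−4.42 ± 0.14, adjusted p = 4.81e-06) and Etv4 with −4.17 ± 0.16 (4.96e-06). Foxo4 fell by 0.55 ± 0.11 (0.00561), while Gli2 of the hedgehog pathway rose by 0.86 ± 0.20 (0.00985) and Mycn rose by 1.62 ± 0.37 (0.0106) from at most 0.480 CPM in WT to 1.18 to 1.83 CPM in cKO. Myc, whose protein can bind the E-box searched above, measured 48.5, 55.7 and 59.8 CPM in WT, against 61.6, 62.2 and 65.7 CPM in cKO and did not pass (0.21 ± 0.10, adjusted p = 0.137). Of the 7 atypical and other cyclins and CDKs tested (8 in the list), 1 fell, Ccng2 by 0.54 ± 0.13 (0.011), and none rose. None of the genes in these 9 lists was called at day 5. The deleted Lmnb1 was the only gene called that day, so a missing call there does not show a missing change.

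**Figure D4:**
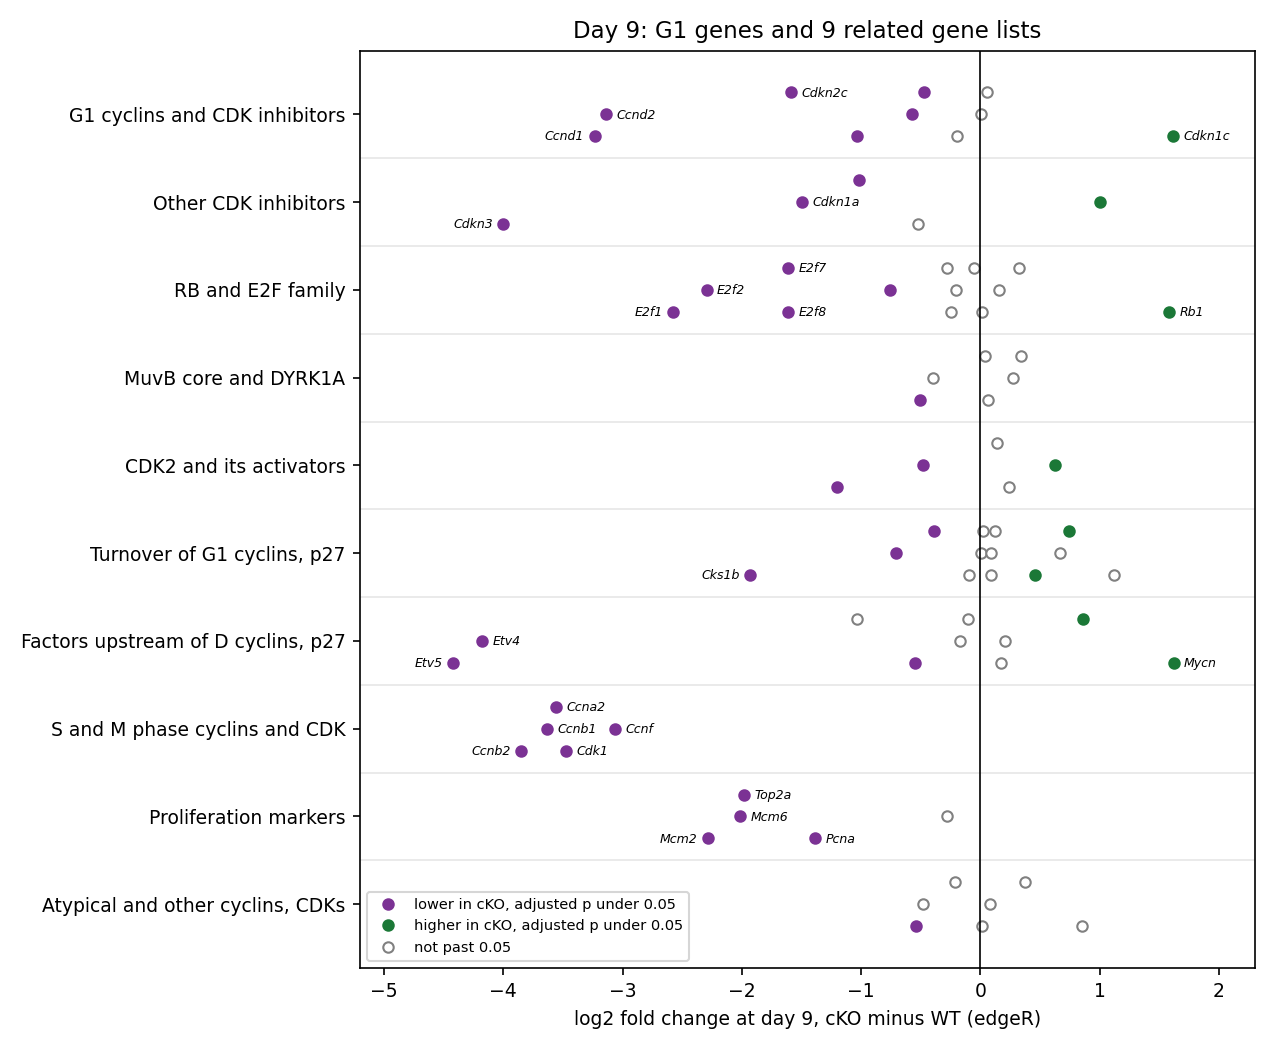
Log2 fold change at day 9 (cKO minus WT, edgeR) of the 10 G1 genes and of the tested genes in 9 related lists, 1 point per gene. Purple points are lower and green points higher at an adjusted p under 0.05, open points did not pass, and names mark the called genes with the larger changes; all 5 S and M phase genes are purple, while the other lists hold open points, and most of them both purple and green ones.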

How the data were processed

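RNA was measured in 12 mouse libraries, 3 in each of 4 groups, with groups and replicate numbers taken from the sample titles. The authors deposited a table of expected counts and a table of TPM for each day. Per the submitters' processing notes RSEM and Bowtie2 were used with the build mm10, and RSEM gene results are what the columns hold per the file headers. The sources used here give no annotation, trimming or strand use, so reads of overlapping genes on opposite strands cannot be told apart. Day 5 identifiers were matched to symbols for 42425 of 43309 features (97.96%). Gene positions came from GENCODE on GRCm38, the assembly of mm10, and transcript lengths and exons from the first CCDS transcript.

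Rounded expected counts were tested with edgeR 4.0.16 (R 4.3.3), using filterByExpr, TMM scaling, a robust quasi-likelihood fit with no covariate, Benjamini-Hochberg adjustment over all genes and a threshold of 0.05, each day on its 6 libraries and the day difference on all 12. Standard errors are the size of the log2 fold change over the square root of F. CPM are TMM scaled. Shares were tested in Python 3.11.15 with the exact permutation test of scipy 1.17.1, two-sided. The edgeR fit was tried on simulated counts with 200 changed genes, at a set spread smaller than that of the data. The permutation test was tried on 1 case of 3 against 3 values with a known answer. Alternatives were DESeq2 1.42.0, RLE scaling, limma 3.58.1 (voom, and log2 TPM plus 1 or 0.1), a stricter filter (1 CPM in 3 libraries) or none, removal of structural RNA features, the replicate block and leaving out each library.

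The members and lists were chosen with earlier results of these data known. From each list up to 4 called genes with the smallest adjusted p are named, plus Cdkn1a, Cdkn2a, Cdkn2b and Cdkn2d. Rb1, Rbl1, Cul4a, Mycn, Myc, Mki67 and the markers were named after their values were seen. The wider structural RNA list, the TPM rescaled without it, the 2 ratios, the promoter letters and the fits without 2 libraries at once were also chosen after seeing the data. Depth per library is given with the results, and low counts limit the precision for scarce genes.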

Additional observations from a re-analysis of the deposited data

Results flagged for a closer look

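The effect of genotype differed between day 9 and day 5 for 4 of the 10 genes, by edgeR's test of the difference itself over all genes. The day 9 change minus the day 5 change was −3.50 on the log2 scale for Ccnd1, −3.57 for Ccnd2, 2.44 for Cdkn1c and −1.78 for Cdkn2c. Ccnd1 and Ccnd2 had changes of 0.27 and 0.43 at day 5 and −3.23 and −3.14 at day 9, Cdkn1c −0.83 and 1.62, and Cdkn2c 0.19 and −1.59. In CPM all 3 cKO libraries moved in the stated direction from all 3 WT libraries at day 9, and also at day 5 for Ccnd1 and Cdkn1c, where neither change passed the test. On the deposited TPM the groups overlapped for Ccnd1 at day 5 and for Cdkn1c at day 9. Oligodendrocyte and astrocyte marker sums were higher in cKO at day 9 and the structural RNA share differed between libraries there, as given above, and their part in these differences was not tested.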

How the results depend on the processing

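Calls of Ccnd1 and Ccnd2 at day 9 held in all 18 alternatives, those of Cdkn1c and Cdkn2c in 16, of Cdk4 in 13, of Cdk6 in 8 and of Ccne1 in 6, and the direction of each of these 7 held in all 18. Leaving out each library in turn, the genes called ran from 0 to 0 at day 5, from 4063 to 7507 at day 9 and from 756 to 2410 for the day difference, and members called at day 9 from 4 to 6. At day 5 the genes called were 9 with DESeq2, 2 with limma-voom, 3 with limma on TPM plus 1, 3 with TPM plus 0.1, 2 with TPM outside structural RNA, 0 with no filter and 19 without WT replicate 1 and cKO replicate 2 together. At day 9 they were 573 on TPM plus 1, 687 on TPM plus 0.1 and 3958 on TPM outside structural RNA, with 2, 2 and 4 members, and 3344 with 4 members without cKO replicates 1 and 3. For the day difference they were 2535 without the 2 day 5 libraries and 452 without the 2 day 9 libraries. With the replicate block, genes called were 0 at day 5, 5514 at day 9 (5 members, Ccne1 and Cdk6 lost) and 322 for the day difference, Ccne1 at day 5 turned to −0.0012 and the day difference of Ccne2 to 0.041, with no other call of the 10 changed. Deviations of same-numbered WT and cKO libraries from their group means had correlations of −0.72 to 0.53 at day 5 and −0.20 to −0.001 at day 9. The 0.53 belonged to replicates 3, and the highest value of day 5, 0.757, to WT replicate 1 with cKO replicate 2. With 3 libraries per group, and 2 that stood apart at day 5, these values cannot decide whether the numbers mark pairs. Signs that turned belonged to genes that did not pass. On TPM plus 1, plus 0.1 and outside structural RNA, Ccne2 at day 9 was −0.58, −1.12 and −0.21, Cdkn1b at day 9 −1.08, −1.13 and −0.15, and Ccne1 at day 5 −0.13, −0.13 and −0.039, where the median of all genes was −0.79, −1.02 and −0.063 at day 9 and −0.098, −0.12 and −0.021 at day 5. On TPM plus 1 and plus 0.1, Ccne2 at day 5 was −0.027 and −0.023 and Cdkn1b −0.082 and −0.084. Relative to these medians neither of the 2 turned at day 5 (0.071 and 0.098 for Ccne2, 0.015 and 0.038 for Cdkn1b), and Ccne2 at day 9 was 0.21, −0.10 and −0.15. With no filter Ccne1 and Cdkn1b at day 5 were −0.046 and −0.0197, and Ccne2 and Cdkn1b at day 9 −0.044 and −0.095. The stricter filter turned the day difference of Cdkn1b to 0.0102. Without the 2 day 5 libraries Ccnd3 at day 5 was 0.0024. Without cKO replicates 1 and 3 of day 9 the day difference was 0.035 for Ccnd3 and 0.20 for Cdkn1b, and Ccne2 at day 9 −0.068. Leaving out each library in turn, day 5 changes ran from −0.12 to 0.74 for Ccnd2, −0.42 to 0.22 for Ccnd3, −0.17 to 0.20 for Ccne1, −0.52 to 0.92 for Ccne2, −0.36 to 0.15 for Cdk4, −0.28 to 0.79 for Cdk6 and −0.16 to 0.34 for Cdkn1b. Day 9 changes ran from −0.33 to 0.56 for Ccne2 and −0.078 to 0.066 for Cdkn1b, and day differences from −0.41 to 0.24 for Ccnd3, −0.88 to 0.57 for Ccne2 and −0.35 to 0.16 for Cdkn1b. Differences in share at day 5 (percentage points) ran from −2.64 to 5.24 for Ccnd1, −4.53 to 7.28 for Ccnd2, −12.4 to 9.28 for Ccne1 and −0.0254 to 0.171 for Cdk6, and at day 9 from −4.61 to 0.679 for Ccne1. The day 5 share difference of Ccnd1 was −0.894 as shares of expected counts, and that of Ccnd2 −1.27 without the 2 day 5 libraries. The cause of these shifts was not tested. Few counts in cKO replicates 1 and 3 of day 9 limit what can be seen for Ccne2 and Cdk6.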
